A study of Mus musculus with 6 samples.

Results

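The genes of neutrophil granule proteins were followed in LSK cells, bone marrow progenitors of the mouse sorted as lineage-negative, Sca1+ and c-Kit+, which sit upstream of the stages at which granules are filled. Members were 10 genes, each read from a probe set that the array annotation assigns to that gene alone, out of 18193 genes read this way. Of these, 5 belong to the early set of the promyelocyte (Elane, Mpo, Prtn3, Ctsg and Ms4a3) and 5 to the late set (Lcn2, Ngp, Camp, Ltf and S100a8). Each member had 1 probe set, and the set of S100a8 is of the kind whose probes can match several related transcripts.

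There were 6 arrays of C57BL/6 mice aged 6 to 7 weeks, 3 of wild-type (WT) and 3 of IkL/L cells. IkL/L mice are homozygous for IkL, a hypomorphic allele of Ikzf1 that lowers the amount of Ikaros, a zinc-finger transcription factor of blood cells. The allele is carried in every cell of the mouse, so that the marrow around the sorted cells is mutant as well. A WT sample stands for 1 mouse and an IkL/L sample for a pool of 2 mice, which makes the groups unlike in the number of animals. Cells bearing B220, CD11b, Gr1 or Ter119 had been gated out before the Sca1+ c-Kit+ cells were collected. Values are log2 values from RMA, a method that sets all arrays to nearly the same distribution. Array medians lay between 4.788 and 4.88, and RMA gives no detection call, so a value near or under that range cannot be told from background.

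Neutrophils carry their antimicrobial proteins in granules that form in a fixed order as the cell matures. Primary granules are filled at the promyelocyte stage with myeloperoxidase and the serine proteases. Secondary and tertiary granules are filled later, at the myelocyte and metamyelocyte stages, with lactoferrin, cathelicidin, lipocalin 2 and Ngp. The early genes are known targets of Myb, PU.1 and C/EBPα, and the late ones of C/EBPε. Low levels of early granule transcripts are known from multipotent progenitors that incline to the granulocyte and monocyte lineages. Not every member is a granule protein: Ms4a3 codes for a membrane protein of granulocyte and monocyte progenitors, and S100a8 for a calcium-binding protein that neutrophils hold mainly in the cytosol.

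Early members are shown first by their promoters, because Elane and Prtn3 lie next to each other in the gene order of mouse chromosome 10. The stretches are the 250 bases before the start of transcription in RefSeq (build GRCm38.p6), that of Elane at chr10:79886062-79886311 and that of Prtn3 at chr10:79879417-79879666, both on the plus strand and written 5′ to 3′. Capitals mark, from left to right, GAGGAA (a PU.1 motif), CAACNG (a Myb motif) and the TATA box, written TATAAG.
Elane: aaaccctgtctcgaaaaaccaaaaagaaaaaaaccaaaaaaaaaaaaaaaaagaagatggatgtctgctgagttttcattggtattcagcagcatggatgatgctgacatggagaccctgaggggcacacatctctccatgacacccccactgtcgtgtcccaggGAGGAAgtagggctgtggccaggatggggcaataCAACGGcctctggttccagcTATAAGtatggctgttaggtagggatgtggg
Prtn3: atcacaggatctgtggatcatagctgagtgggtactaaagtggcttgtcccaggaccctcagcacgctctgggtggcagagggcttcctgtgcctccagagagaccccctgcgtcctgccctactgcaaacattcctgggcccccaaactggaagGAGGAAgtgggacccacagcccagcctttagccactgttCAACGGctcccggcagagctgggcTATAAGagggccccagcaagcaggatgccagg

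Both promoters held the 3 motifs in the same order and at nearly the same distance from the start. In Elane they began at -85, -51 and -31, and in Prtn3 at -95, -56 and -32. Searched on both strands in the 300 bases from 250 before to 50 after the start, GAGGAA was found in 28.3% of 32851 RefSeq promoters, CAACNG in 35.0% and TATAAG in 7.43%. All 3 together were found in 0.755% of the promoters, and among the members in Elane and Prtn3 alone. The motifs were chosen after these sequences had been seen. AGGAA, the core letters of an Ikaros motif and a part of GAGGAA, was found in the windows of 10 of 10 members and in 66.7% of all, so that these letters set no member apart.

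A C/EBP motif, TTGCNNAA, was found in 4 of 10 members and in 10.8% of all promoters. These stretches are shown because the 4 genes span the range of behaviour described further on, from Ms4a3 and Lcn2 to Ngp and Ltf. The capitals mark the motif on either strand. Lcn2 is given at chr2:32387740-32387989 on the minus strand, Ngp at chr9:110419558-110419807 and Ltf at chr9:111019042-111019291 on the plus strand, each as the 250 bases before the start. Of Ms4a3 only the 30 bases from 21 to 50 after the start are shown, at chr19:11640802-11640831 on the minus strand, where its motif begins at 42.
Ms4a3: tccactggacttgctgaggaaTTGCACAAa
Lcn2: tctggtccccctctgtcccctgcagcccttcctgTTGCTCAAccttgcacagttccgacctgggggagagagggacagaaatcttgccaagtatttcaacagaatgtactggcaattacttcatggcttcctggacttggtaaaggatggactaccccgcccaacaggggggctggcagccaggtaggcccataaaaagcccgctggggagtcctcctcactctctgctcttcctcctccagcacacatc
Ngp: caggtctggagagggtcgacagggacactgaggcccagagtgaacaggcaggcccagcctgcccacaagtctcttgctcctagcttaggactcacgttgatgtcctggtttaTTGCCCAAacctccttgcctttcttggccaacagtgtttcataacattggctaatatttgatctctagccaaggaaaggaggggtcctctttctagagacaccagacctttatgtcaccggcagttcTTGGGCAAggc
Ltf: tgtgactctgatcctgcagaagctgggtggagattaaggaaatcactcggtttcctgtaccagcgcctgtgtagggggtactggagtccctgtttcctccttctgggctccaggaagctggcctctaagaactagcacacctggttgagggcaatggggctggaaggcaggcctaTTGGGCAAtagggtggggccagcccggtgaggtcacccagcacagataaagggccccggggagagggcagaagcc

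In Ngp the motif occurred at -138 and again at -11, in Lcn2 at -216 and in Ltf at -75. Of the 4 genes that hold these letters, Ms4a3 and Lcn2 rose in IkL/L cells while Ngp and Ltf did not pass the test. A match of letters is no evidence that a factor binds there, and binding was not measured in these samples.

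All 5 early members read higher on each IkL/L array than on any WT array, and 2 of them passed the test across all genes. In limma, 3 of 10 members rose past a Benjamini-Hochberg adjusted p of 0.05, namely Elane and Ms4a3 of the early set and Lcn2 of the late set, and 0 fell. At an unadjusted p under 0.05, 6 members were higher, the 5 early ones and Lcn2, and 0 lower. Over all 18193 genes, 0.748% were called higher and 0.242% lower, and 5.83% were higher and 5.35% lower at the unadjusted level. The 3 IkL/L values lay above the 3 WT values in 6 of 10 members, in 5 of 5 early members and in 1 of 5 late ones. Over all genes this held for 7.62%, and the opposite, all mutant values below, held for 9.59% of genes and for 0 members. The median log2 difference was 1.12 over the early members and 0.35 over the late members, against -0.02 over all genes. The 2 sets are unlike in signal: a mean of at least 6 was reached by 5 of 5 early members and 1 of 5 late ones. In the dim late members a difference could be missed. In bulk samples, more cells of a kind and more transcript per cell cannot be told apart, and this holds for every difference given here.

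**Figure D1:**
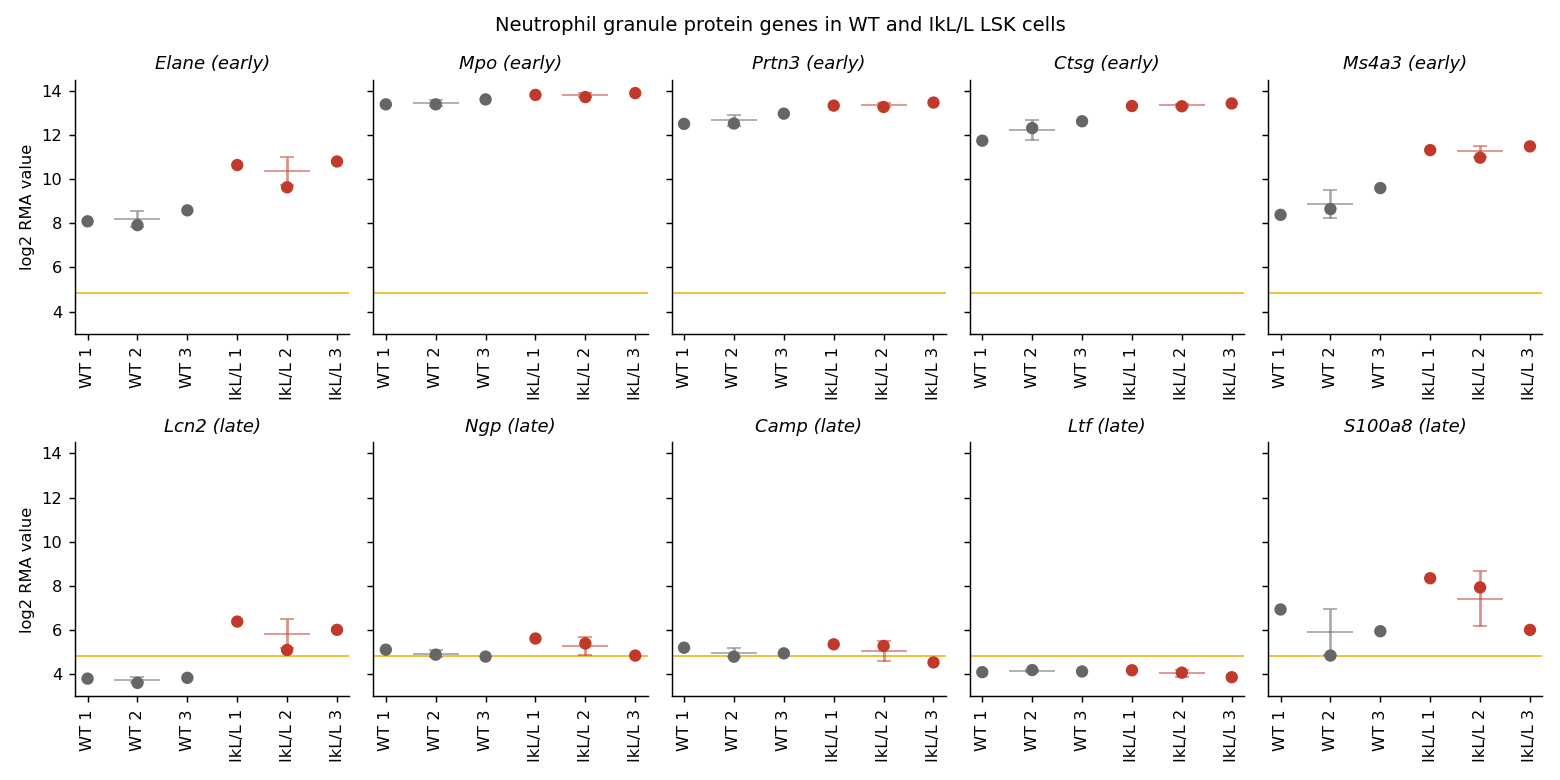
Log2 RMA value (vertical axis) of each member on the 3 WT (grey) and 3 IkL/L (red) arrays, with the group mean and SD as bars and the median of all probe sets as a yellow line. The vertical axis starts above 0 and levels should not be set against each other between genes. The early members (top row) lay far above the yellow line on every array and did not overlap between genotypes, whereas Ngp, Camp and Ltf (bottom row) lay near or under it.

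Elane codes for neutrophil elastase, a serine protease of primary granules. It stood at 8.09, 7.92 and 8.59 on WT 1, 2 and 3 and at 10.64, 9.63 and 10.80 on IkL/L 1, 2 and 3. The lowest mutant array was above the highest WT array by more than the SD of either group. Means were 8.20 ± 0.35 in WT and 10.35 ± 0.63 in IkL/L (SD, n = 3), a log2 difference of 2.16 with a 95% interval from 1.45 to 2.87, or 4.46-fold (adjusted p = 0.0312 in limma).

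Ms4a3 showed the widest gap among the early members. Its values were 8.38, 8.64 and 9.59 in WT and 11.31, 10.97 and 11.48 in IkL/L cells. All 3 mutant arrays lay close together, while WT 3 stood above the other WT arrays and nearest to the mutants. The difference was 2.38 (95% interval 1.70 to 3.07), or 5.22-fold, with an adjusted p of 0.0175.

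Ctsg, Prtn3 and Mpo had higher values on every IkL/L array but did not pass the adjusted threshold. Ctsg, the protease cathepsin G, gave 11.74, 12.31 and 12.62 in WT and 13.31, 13.30 and 13.43 in IkL/L. The mutant arrays nearly coincided, with an SD of 0.07 against 0.45 in WT. An IkL/L sample pools 2 mice and a WT sample is 1 mouse, so these SDs do not measure the same spread. The difference was 1.12 (0.65 to 1.59), with an unadjusted p of 0.000592 and an adjusted p of 0.0748 in limma.

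Prtn3, the protease proteinase 3, stood at 12.50, 12.52 and 12.96 in WT and at 13.33, 13.27 and 13.47 in IkL/L. Here too WT 3 was the WT array nearest to the mutants. The difference was 0.69 (0.36 to 1.03), with an adjusted p of 0.115. Mpo, the peroxidase that makes hypochlorous acid, stood at 13.39, 13.38 and 13.61 in WT and at 13.81, 13.71 and 13.89 in IkL/L, with a difference of 0.35 (0.10 to 0.59) and an adjusted p of 0.335.

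Mpo, Prtn3 and Ctsg gave signals near the top of the scale already in WT cells, where the highest values of the 6 arrays lay between 14.49 and 14.52. A probe set's signal depends on its probes, so this says nothing of the amount of one transcript against another. Over the 283 probe sets with a mean at least that of Ctsg, the median difference was 0.0025 and the lowest -0.31. A median near 0 shows no common direction, and not that each difference was small. That cut uses all 6 arrays, and Ctsg and Prtn3 reach it through their mutant arrays. Neither the highest difference nor a rank among these probe sets is therefore given. Whether saturation narrows the differences of these 3 members was not tested.

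Lcn2 was the late member that rose. It codes for lipocalin 2, which binds bacterial siderophores. Its values were 3.80, 3.61 and 3.84 in WT and 6.39, 5.10 and 6.01 in IkL/L. All WT arrays lay under the array medians and all mutant arrays over them, with IkL/L 2 nearest. The fitted log2 difference was 2.08 with an adjusted p of 0.0276 in limma. The WT level cannot be told from background, so the size of this difference is uncertain and no fold is given.

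S100a8, a subunit of calprotectin, was the late member with the widest spread. It stood at 6.93, 4.85 and 5.95 in WT and at 8.35, 7.93 and 6.01 in IkL/L. The groups overlapped, because WT 1 exceeded IkL/L 3, and the SD was 1.04 in WT and 1.25 in IkL/L. The difference was 1.52 with an interval from -0.03 to 3.07 (adjusted p = 0.578), which leaves room for no difference as well as for a large one.

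The other secondary granule genes were dim on all arrays. Ngp, the neutrophilic granule protein, read 5.11, 4.89 and 4.80 in WT and 5.62, 5.39 and 4.85 in IkL/L (difference 0.35, interval -0.10 to 0.80, adjusted p = 0.676). Camp, the cathelicidin precursor, read 5.20, 4.80 and 4.95 against 5.36, 5.28 and 4.54 (0.08, -0.44 to 0.59, 0.951). Ltf, the iron-binding lactoferrin, read 4.10, 4.19 and 4.13 against 4.18, 4.07 and 3.87 (-0.10, -0.35 to 0.15, 0.855). In these 3 genes the genotypes overlapped, and with levels around or under the array medians a difference in transcript could be missed.

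**Figure D2:**
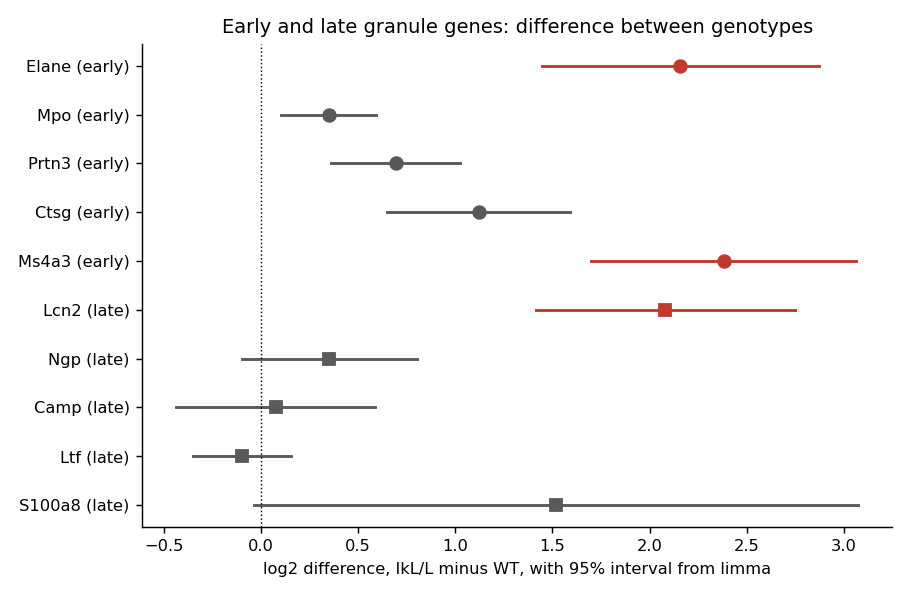
Log2 difference between IkL/L and WT (horizontal axis) of the 5 early (circles) and 5 late (squares) members, with 95% intervals from limma as bars. The 3 called members are red, and the intervals of the 5 early members and of Lcn2 lie above 0, while those of Ngp, Camp, Ltf and S100a8 reach below it. The size for Lcn2 is uncertain, with WT values under the array medians.

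The early members shared much of their order of arrays. WT 3 was the highest WT array in 5 of 5 early members, IkL/L 3 the highest mutant array in 5 of 5 and IkL/L 2 the lowest mutant array in 5 of 5. Some gaps were small, as in Ctsg, with 13.31 on IkL/L 1 and 13.30 on IkL/L 2. The share of all genes with this order was not counted, so it is not shown to be particular to the members. Measured as the mean deviation of the 5 genes from their WT means, the arrays stood at -0.26, -0.13 and 0.39 for WT 1, 2 and 3 and at 1.40, 1.09 and 1.53 for IkL/L 1, 2 and 3. The lowest mutant array was 0.70 above the highest WT array, and the mean difference was 1.34.

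The late members followed another order. Their mean deviation was 0.29, -0.28 and -0.01 on WT 1, 2 and 3 and 1.24, 0.81 and 0.31 on IkL/L 1, 2 and 3, with a mean difference of 0.79. IkL/L 3, the top array for early members, was the lowest mutant array for late ones. Without Lcn2 the late values were 0.35, -0.31 and -0.04 in WT and 0.89, 0.68 and -0.18 in IkL/L, so that the groups then overlapped and the difference was 0.46.

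The contrast of early against late members was not separated from the spread between arrays. Early minus late was -0.55, 0.15 and 0.40 on WT 1, 2 and 3 and 0.16, 0.28 and 1.22 on IkL/L 1, 2 and 3. The genotypes overlapped, with a mean difference of 0.55 beside an SD of 0.49 in WT and 0.58 in IkL/L (n = 3). It was 0.88 without Lcn2. The contrast also sets bright early genes against mostly dim late ones, in which a difference could be missed. With the 4 dimmest members left out by requiring a mean of at least 6, S100a8 alone stood for the late set and the contrast turned to -0.18. S100a8 passes that filter through its IkL/L values, with a mean of 5.91 in WT and 7.43 in IkL/L, so that this sign is set by the filter.

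**Figure D3:**
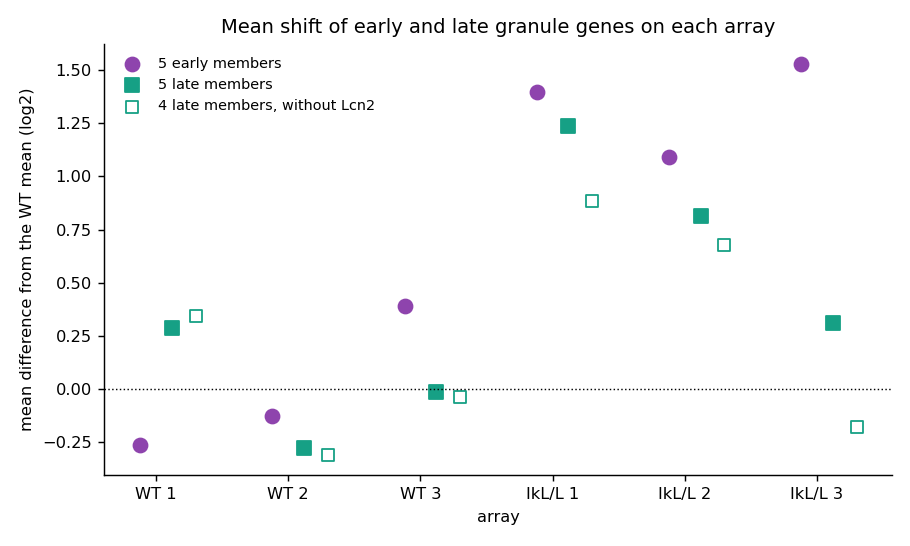
Mean deviation from the WT mean (log2, vertical axis) on each array (horizontal axis) of the 5 early members (purple circles), the 5 late members (green squares) and the late members without Lcn2 (open squares). The circles of the 3 IkL/L arrays, 1.09 to 1.53, lie above those of the WT arrays, -0.26 to 0.39, while the open squares overlap between genotypes.

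The calls depended on the arrays kept, more than the differences did. When each array was left out in turn, Elane ranged from 1.94 to 2.52 and Ms4a3 from 2.14 to 2.74, and both were called in 2 of the 6 fits, without WT 3 and without IkL/L 2. Lcn2 ranged from 1.81 to 2.45 and was called in 1 fit, without IkL/L 2. Ctsg (0.88 to 1.32) and Prtn3 (0.61 to 0.85) were called in the fit without WT 3 and in no other of these. Mpo kept a positive difference, 0.30 to 0.42, and was called in 0 of the 6 fits. No member passed in limma when WT 1, WT 2, IkL/L 1 or IkL/L 3 was the array left out. At an unadjusted p under 0.05, 6 to 8 members were then higher, as were 4.78% to 5.6% of all genes. The share of all genes that passed the adjusted threshold in these fits is not given here. The loss of calls is therefore not shown to be particular to the members.

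**Figure D4:**
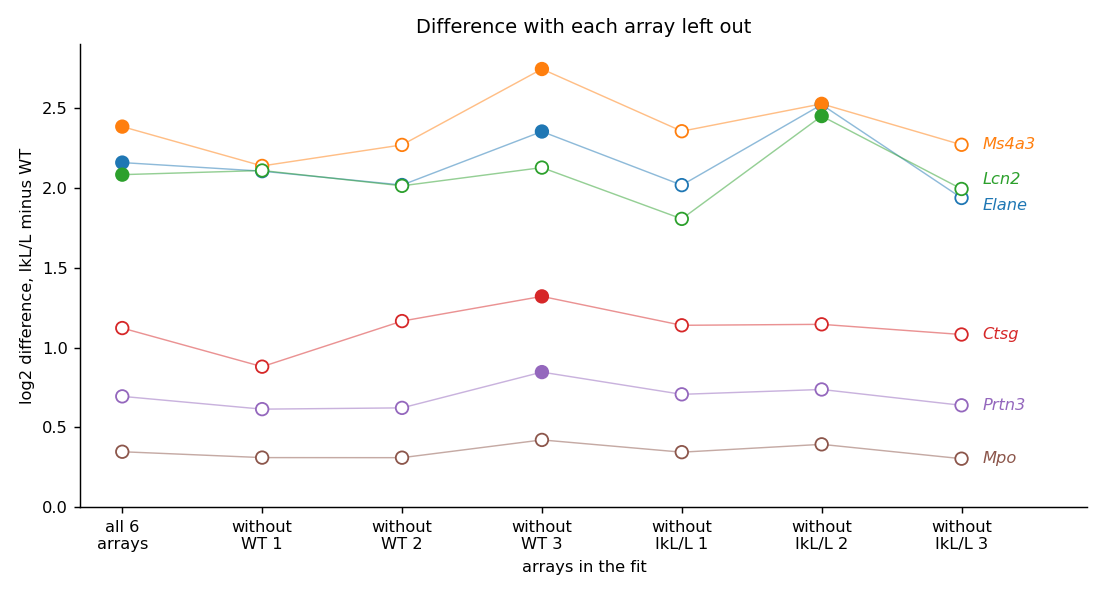
Log2 difference between IkL/L and WT (vertical axis) of 6 members in the fit of all 6 arrays and in the fits without 1 array each (horizontal axis). Filled circles passed the adjusted threshold of 0.05 and open ones did not. The differences of all 6 genes stayed above 0, and 4 of the 6 fits with an array left out have open circles alone.

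Other genes of early granules and of granule handling came next. Of 15 listed, 11 were measured and 0 passed in limma, and 4 had an unadjusted p under 0.05. Their median difference was 0.21, and in 5 of them the mutant arrays lay above the WT arrays. Slpi, an inhibitor of elastase and cathepsin G, gave 0.94 (adjusted p = 0.168). It stood at 7.24, 7.58 and 7.74 in WT and at 8.47, 8.04 and 8.88 in IkL/L, without overlap. Lyz2, a lysozyme of macrophages and granulocytes, gave 0.75 (adjusted p = 0.0871). Ctsc, the protease that activates the granule proteases, and Srgn, the proteoglycan that packs them, were chosen after their values were seen and gave 0.02 and 0.21.

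Among 17 measured genes of late granules and mature neutrophils, of 20 listed, 1 rose and 0 fell, with a median difference of 0.07. In 5 of them the mutant arrays lay above the WT arrays, and the same number had an unadjusted p under 0.05, all higher. Trem3, a receptor of the TREM family, stood at 6.60, 6.81 and 7.39 in WT and at 8.83, 8.53 and 9.13 in IkL/L. As in the early members, WT 3 was its top WT array and IkL/L 3 its top mutant array. The difference was 1.89 with an adjusted p of 0.0154, and the call held in 4 of the 6 fits with an array left out, but not without WT 1 or IkL/L 1.

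Hp, the haemoglobin-binding haptoglobin, read 7.92, 7.41 and 8.72 in WT and 10.29, 9.52 and 10.24 in IkL/L, also without overlap. Its difference was 2.00, just outside the threshold (adjusted p = 0.0553). Anxa1, annexin A1, gave 0.50 (0.1). These were the only 3 genes of the list with a mean of at least 6. The others read lower, and Mmp8 and Olfm4, proteins of later granules chosen here as examples after their values were seen, lay under the array medians on all arrays.

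Of the regulators of granulocyte development, 19 of 20 were measured, 1 rose and 0 fell. At an unadjusted p under 0.05 in limma, 7 were higher and 1 lower. The mutant arrays lay above the WT arrays in 7 of the genes and below them in 1. Cebpd, a C/EBP transcription factor, stood at 7.59, 7.58 and 7.93 in WT and at 8.97, 8.60 and 8.90 in IkL/L. The groups were well apart, with a difference of 1.12, or 2.18-fold, and an adjusted p of 0.0188. The call held in 2 of the 6 fits with an array left out, those without WT 3 and without IkL/L 2.

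Irf8, a transcription factor of the monocyte lineage, gave 0.77 (adjusted p = 0.1) and Csf2rb, the shared chain of the GM-CSF, IL-3 and IL-5 receptors, 0.67 (0.22). Chosen after their values were seen, Cebpa gave 0.61 (0.566), Gfi1 0.19 (0.663), Spi1, which codes for PU.1, -0.11 (0.907) and Myb -0.02 (0.966). These picks all overlapped between genotypes and do not stand for the list. Cebpe was not analysed here, as no probe set is listed for it alone. The median of the list was 0.19.

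**Figure D5:**
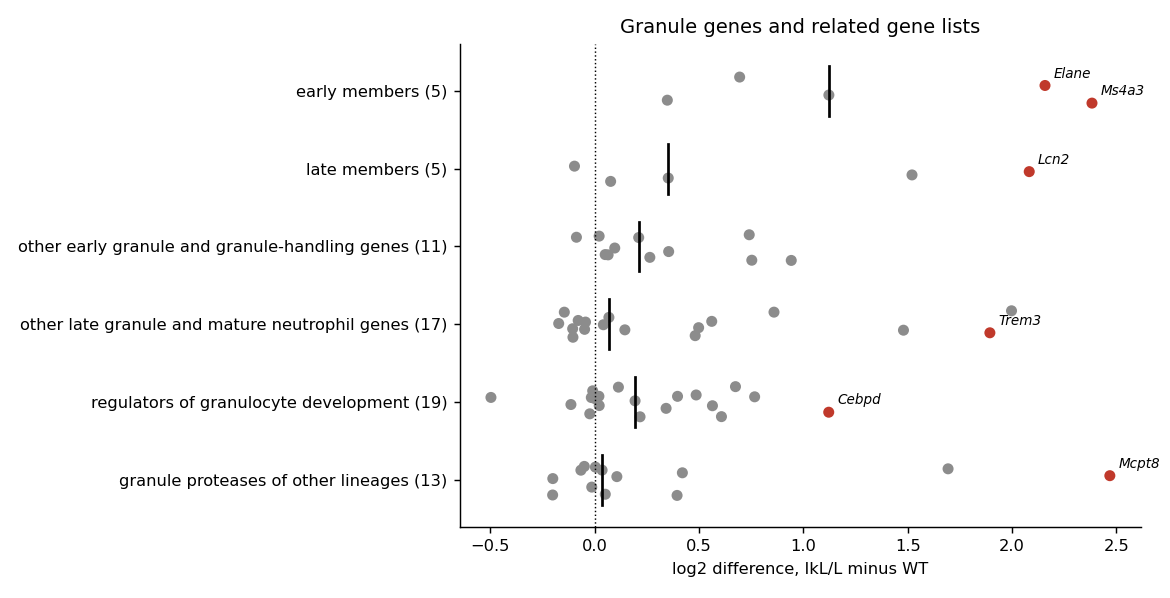
Log2 difference between IkL/L and WT (horizontal axis) of the measured genes in 6 lists, with 1 point per gene, the number of genes in brackets and the median as a black bar. The vertical scatter within a list has no meaning. The 6 called genes are red and named, and the medians of the 4 lists outside the members lie between 0.04 and 0.21.

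Granule proteins of other lineages, mainly proteases, were compared as the nearest relatives of the members by function. Prf1, Epx and Prg2 in this list are not proteases and are named here for that reason. Of 15 listed, 13 were measured, 1 rose and 0 fell, with a median difference of 0.04. Mcpt8, a protease of basophil granules, read 7.10, 7.10 and 7.64 in WT and 9.61, 9.54 and 10.09 in IkL/L. Its difference of 2.47, or 5.53-fold (adjusted p = 0.00306), was called in 6 of the 6 fits with an array left out. Cpa3, the carboxypeptidase of mast cells, gave 0.42 (0.244). The granzymes Gzma, Gzmb, Gzmc, Gzmk and Gzmm of lymphocytes, chosen after their values were seen, gave -0.20 to 0.05 and none was called. All but Gzmm lay under the array medians on all arrays, so a difference in them could be missed. Only 2 of the 13 genes had a mean of at least 6, and the list median rests mostly on dim genes.

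Position along the chromosome was compared with the same differences, taking 3 genes on each side of every member in the gene order of GRCm38.p6. Of 34 measured neighbours 2 were called higher and 0 lower, apart from the member pair itself. Over all genes, 0.748% were called higher and 0.242% lower. Elane and Prtn3 differed by 2.16 and 0.69, whereas the genes around them gave 0.33 for Plppr3 (adjusted p = 0.737), -0.06 for Ptbp1 (0.948) and 0.21 for Med16 (0.837). Cfd, Mir6910 and Gm19810, which lie in the same stretch, were not analysed here. Some uncalled neighbours of other members, chosen after their values were seen, differed more. Beside Mpo, Tspoap1 gave 0.44 (0.175) and Lpo -0.37 (0.304), and beside Ms4a3, Oosp1 gave 0.61 (0.112).

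The called neighbours lay beside Ctsg and Ms4a3. Mcpt8 lies beside Ctsg in a protease cluster of chromosome 14, with a microRNA gene between them in this order, while Gzme and Gzmd on the other side, granzyme genes chosen after their values were seen, read under the array medians. Ms4a6d, a neighbour of Ms4a3 chosen after its values were seen, read 4.17, 4.09 and 4.31 in WT and 5.75, 5.86 and 5.32 in IkL/L (difference 1.45, adjusted p = 0.00993). Its WT arrays were under the array medians, and its call held in 4 of the 6 fits with an array left out. Like that of S100a8, the probe set of Ms4a6d is of the kind whose probes can match several related transcripts. Ms4a2 and S100a9 were also chosen after their values were seen. Ms4a2, the β chain of the IgE receptor and the gene next to Ms4a3, gave 0.67 (0.234). S100a9, the partner of S100a8 in calprotectin, was at 3.90 to 5.28 on all arrays (0.48, 0.737).

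Markers of the gate and of other cell types were read beside the members. Ikzf1, the mutated gene, stood at 11.57, 11.59 and 11.44 in WT and at 10.77, 10.85 and 10.93 in IkL/L (-0.68, adjusted p = 0.0307, called in 1 of the 6 fits with an array left out). It was not examined whether its probes fall inside or outside the mutated stretch, so these values are no test of the labels. Of 6 measured LSK markers 0 passed in limma, with 1 higher and 1 lower when p was left unadjusted. Kit stood at 11.21 to 11.50 in WT and 11.07 to 11.35 in IkL/L. Flt3, a receptor of multipotent progenitors that incline to lymphoid fates, stood at 10.97, 10.79 and 10.31 in WT and at 9.56, 10.05 and 9.80 in IkL/L, without overlap (-0.88, adjusted p = 0.132). Procr, a receptor found on stem cells, gave 0.69 (0.409) with overlapping groups. Flt3 and Procr were chosen after their values were seen, and the part of a shift within the sorted cells in the differences of the members was not tested. Itgam, which codes for CD11b, stood at 5.30, 3.48 and 3.64 in WT and at 4.37, 3.51 and 4.17 in IkL/L, with WT 1 highest. Ly6a and Ly6g have no probe set of their own in the annotation and were not analysed here.

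Of 11 markers of mature macrophages 0 passed in limma, with an unadjusted p under 0.05 in 2 that were higher and 1 that was lower, and the mean of the list was 4.91 to 5.42 in WT and 4.90 to 5.42 in IkL/L. C1qa gave -0.87 (adjusted p = 0.5). Cd68 gave 1.17 (0.0651), at 7.05, 6.44 and 7.28 in WT and 8.07, 7.97 and 8.25 in IkL/L. Of 10 measured markers of stroma and endothelium 1 rose, Cdh5 (2.50, 0.00274, with WT under the array medians), and the list mean was 5.10 to 5.84 in WT and 5.13 to 5.31 in IkL/L. Col1a1 and Col1a2 were highest on WT 1 and WT 2, with Col1a2 at 10.12, 9.56 and 7.78 in WT and 7.65 to 8.34 in IkL/L. The early members were highest on WT 3 among the WT arrays, and the part of such cells in the differences was not tested.

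Marker lists of 2 other lineages had higher means on the IkL/L arrays. The mean of 8 erythroid markers was 7.35 to 7.58 in WT and 7.87 to 8.28 in IkL/L, with 0 called, 4 higher at an unadjusted p under 0.05 and Klf1, an erythroid transcription factor, at 1.01 (adjusted p = 0.143). Car1, a carbonic anhydrase of red cell precursors chosen after its values were seen, gave 1.65 (0.0507). The mean of 9 B lineage markers was 5.20 to 5.41 and 6.06 to 6.67, with 3 called (Vpreb1, Ms4a1 and Mzb1). Ms4a1 stood at 3.32 to 3.54 in WT, under the array medians. In 7 of the 9 markers the difference was above 0. Ebf1 at -0.23 (adjusted p = 0.729 in limma) and Pax5 at -0.22 (0.736) are named because of their opposite sign. Ebf1 read under the array medians on all arrays and Pax5 around them. Both lists were highest on IkL/L 2, the lowest mutant array for the early granule members, and their part in the differences was not tested.

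S100a8 followed a pattern of arrays that it shared with other late members, and with granulocyte genes chosen after their values were seen. Ngp and Camp of the late members, and S100a9 and Mmp8 outside the members, read higher on WT 1, IkL/L 1 and IkL/L 2. The levels of these genes were around or under the array medians. Chil3, a chitinase-like protein of neutrophils and macrophages, read 5.97, 3.21 and 3.30 in WT and 6.88, 6.83 and 3.21 in IkL/L. Prg2, the major basic protein of eosinophils, read 6.91, 3.77 and 4.08 in WT and 7.70, 7.31 and 4.82 in IkL/L. Like S100a8, both were higher on WT 1, IkL/L 1 and IkL/L 2 than on the other arrays, and neither was called (adjusted p = 0.762 and 0.682). Itgam was highest on WT 1 (5.30) and next on IkL/L 1 (4.37), whereas IkL/L 2 (3.51) read below IkL/L 3 (4.17), with most of these values under the array medians. Whether mature granulocytes passed the gate in these 3 samples was not tested.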

How the data were processed

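LSK cells of 3 WT and 3 IkL/L samples were profiled on Affymetrix mouse genome arrays, using 100 ng of total RNA and 2-cycle labelling. Values were deposited on the log2 scale after RMA, and the submitters' processing notes also name R 2.8. The study's methods describe a normalization together with thymocyte arrays, and whether these values stem from it is not given in the sources used here.

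Of 45037 probe sets, 34945 have 1 gene in the platform annotation, 932 have several and 9160 are not listed. Symbols were brought up to date by Entrez number for 34741 of them. A gene was read from its single-gene probe set with the highest mean. Genotypes were compared with limma 3.58.1 in R 4.3.3 (linear model with genotype alone, moderated variances, two-sided), and p-values were adjusted by Benjamini-Hochberg over all probe sets at 0.05. The procedure was tested on simulated data. The p-values rest on the spread within the 2 groups of 3 samples, moderated over all probe sets, and that number limits the precision. A WT sample is 1 mouse and an IkL/L sample a pool of 2, so this spread mixes unlike kinds of sample.

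Members and lists were chosen with earlier results of these data known. The text names all members, the called genes of each list (at most 6), for lists other than markers also the 2 largest differences among uncalled genes with a mean of at least 6, defining markers, and neighbours of Elane and Prtn3. Genes named besides these are marked. Promoter sequences are from RefSeq (GRCm38.p6), with 1 window per member. Deviations of same-numbered arrays correlated at 0.01, -0.11 and 0.08, so they were not treated as pairs. No arrays were identical. Alternatives were another quantile normalization, median centring, filters on dim probe sets, array weights, a variance trend over intensity, a replicate block, averaging a gene's probe sets and leaving out each array.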

Additional observations from a re-analysis of the deposited data

How the results depend on the processing

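Of the 10 members, 3 were called higher with all arrays and 0 to 4 when each array was left out in turn. The count was 0 when this array was WT 1, WT 2, IkL/L 1 or IkL/L 3. It was 4 for WT 3 and 3 for IkL/L 2. The share of all genes called in each of these fits is not given here, so the counts cannot be set against it. At an unadjusted p under 0.05 in limma, 6 to 8 members were higher in these fits, beside 4.78% to 7.19% of all genes. Averaging a gene's probe sets gave 5 calls (Prtn3 and Ctsg in addition) at the same differences, as each member has 1 probe set. That fit tests 18193 genes instead of 45037 probe sets and also alters the values of other genes, and which of these matters was not tested. Prtn3 was also called with a variance trend over intensity and Ctsg with array weights, which made 4 each. The filters on dim probe sets left 8 and 6 members to test and called 2, having removed Lcn2. Another quantile normalization, median centring and the replicate block gave 3 each. For these other settings, too, the share of all genes or probe sets called is not given. A gain or loss of calls is therefore not shown to be particular to the members. Elane and Ms4a3 were called in 7 of 7 fits of other settings with all arrays and their own probe set.

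The difference between early and late members turned from 0.55 to -0.18 with a mean of at least 6, where S100a8 was the only late member left. It passes this filter through its IkL/L values, so that the filter sets this sign. The difference between the sets was 0.55 with the replicate block, which cannot move it in a balanced design. It was 0.22 to 0.76 with an array left out. The fit without the block is the one reported, as the numbers do not pair the arrays. Each member kept its direction in the settings that could change it, apart from Camp. Camp ran from -0.07 to 0.34 with an array left out and was never called. The dim filters, the variance trend, the replicate block and the averaging leave the difference of a tested member as it is. They are therefore no check of direction. Low signal limits Lcn2, Ngp, Camp and Ltf, and 3 arrays a group limit every call.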
